A study of Mus musculus with 36 samples.

Results

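The comparison described here sets 3 libraries of mouse embryonic stem cells under auxin (IAA) at day 6 against 3 libraries of mouse embryonic stem cells under DMSO at day 6, over all genes. These 6 libraries are among 36 in the series, which cover 3 treatments (IAA, BPK25 and DMSO) at days 0, 2, 4 and 6 with 3 libraries each. Polyadenylated RNA was sequenced and counted per gene. IAA is a plant hormone that triggers breakdown of proteins carrying an auxin degron, and DMSO is a common solvent for compounds. BPK25 is a compound named in the labels by its code only. The series title concerns the NuRD complex and chromatin at CTCF sites. Which protein carries a degron, at what dose IAA was given, what the days count from and whether IAA and DMSO cells were 1 clone are not stated in the labels. All groups share the same medium, with serum replacement and LIF, and the cells were typically kept on irradiated fibroblast feeders, whose RNA could be part of every library. The labels do not say whether replicates are separate cultures, and p-values therefore reflect library-to-library spread that may be technical.

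CTCF is a zinc finger protein that binds DNA and, with the ring-shaped cohesin complex, sets the ends of many chromatin loops. The NuRD complex joins a chromatin remodelling ATPase (CHD proteins) to histone deacetylases (HDAC1 and HDAC2). Embryonic stem cells express pluripotency factors and lose them as they take up lineage programs, and at imprinted loci such as Igf2 and H19 the binding of CTCF to 1 parental copy is known to keep enhancers from Igf2.

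The 6 libraries held 10431792, 7780619 and 8124886 counts in IAA and 16497799, 9762112 and 10433477 counts in DMSO. Levels are given as CPM, counts scaled by TMM to a common total, with the SD over 3 libraries after ±. Log2 fold changes are IAA over DMSO, from edgeR's quasi-likelihood test fitted to all 36 libraries, and the value after ± is an approximate standard error (the absolute log2 fold change over the root of the F statistic). A gene was called at a Benjamini-Hochberg adjusted p under 0.05 over 17394 genes. Markers of stem cells were present in both groups: the summed level of Pou5f1, Sox2, Nanog, Zfp42 and Esrrb was 404 to 437 CPM in IAA and 476 to 493 CPM in DMSO. Pou5f1 was at 1018 CPM at day 0 and 219.6 CPM at day 6 in IAA, and at 833 and 208 CPM on those days in DMSO. Nanog was at 164 and 5.98 CPM on those days in IAA, and at 111 and 19.5 CPM in DMSO.

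Whole chromosomes stood apart between the groups, and this bears on every gene that lies on them. On chromosome 14 the genes split between Prxl2a, which ends at chr14:41013788, and Gm7324, which starts at chr14:43697828 (GRCm38): 124 genes before it with at least 5 CPM had a median log2 fold change of 0.49, and 265 genes after it had a median of -0.79, with 95.1% of them below 0. The split was placed where it best separated the values, so it is a description. Chromosome 12 had a median of 0.33 and chromosome 8 of 0.18, while the medians of the 17 other chromosomes (autosomes and X) ranged between -0.073 and 0.051. Of the genes tested, 75.3% of the second part of chromosome 14 were called lower and 71.4% of the first part were called higher. Each IAA library showed these shifts: at day 6 the second part of chromosome 14 lay -0.79 to -0.76 from the DMSO mean, and at day 0 it lay -0.53 to -0.52 from it. The 3 libraries labelled BPK25 at day 4 had it at -0.82 to -0.80, while the BPK25 libraries of day 0 had it at -0.039 to -0.026 and those of day 6 at -0.099 to -0.087. In this the libraries labelled BPK25 at day 4 were like those of IAA and unlike the BPK25 libraries of the other days, and whether their label is right could not be checked. DNA copy number was not measured, and a difference in karyotype between the cells cannot be told apart from the treatment here. Chromosomes 8, 12 and 14 are therefore named beside the genes that lie on them.

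**Figure D1:**
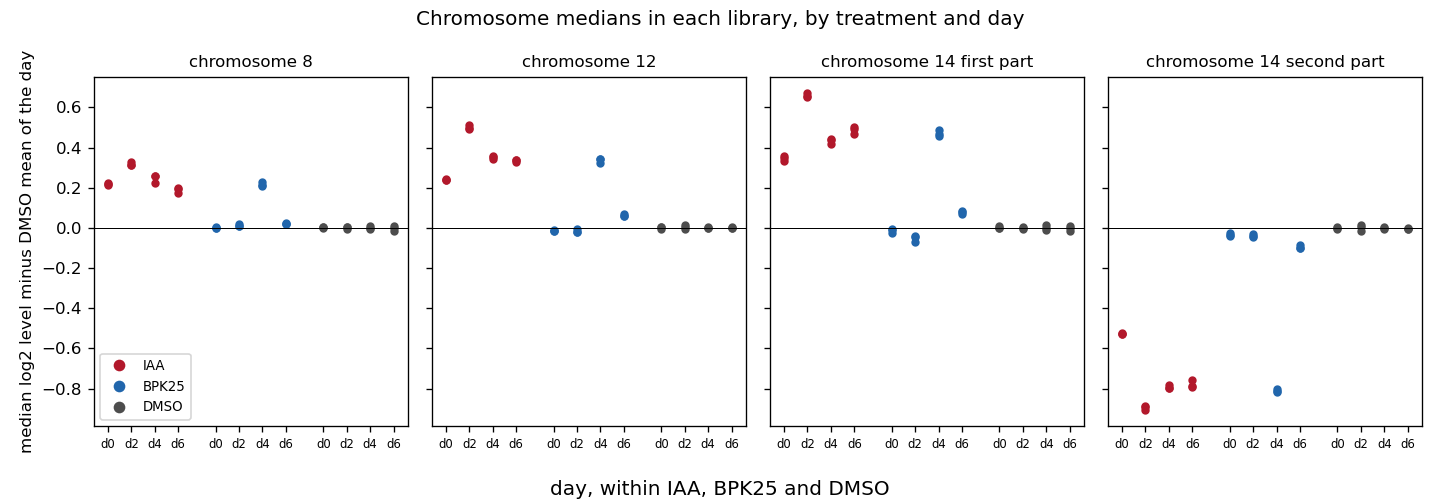
Median over genes of the log2 level minus the DMSO mean of the same day, for each library (1 point), in 4 chromosome segments, with IAA, BPK25 and DMSO from left to right and days 0 to 6 within each. IAA libraries stand away from 0 at every day, at -0.79 to -0.76 for the second part of chromosome 14 at day 6, and so do the libraries labelled BPK25 at day 4.

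**Figure D2:**
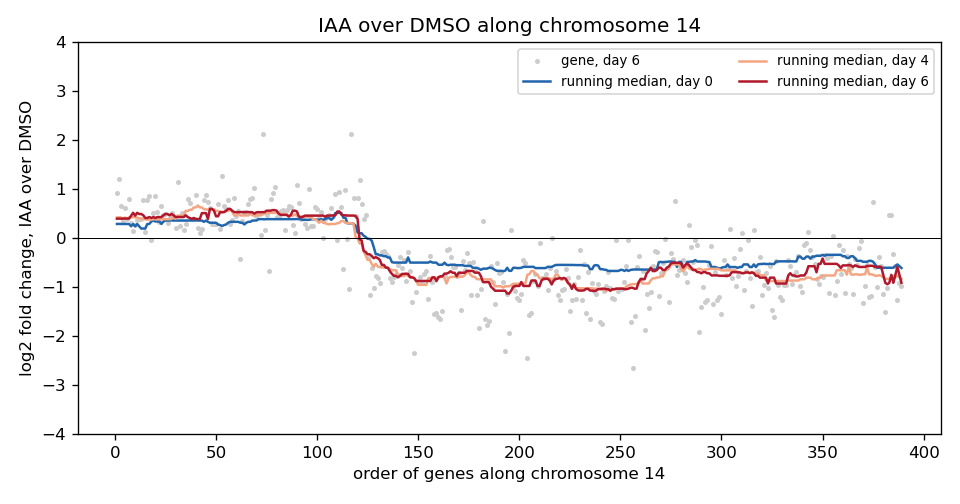
Log2 fold change of IAA over DMSO at day 6 for genes in their order along chromosome 14 (grey points), with running medians at days 0, 4 and 6 (lines). The lines pass from above 0 to below 0 at 1 place, with medians of 0.49 before and -0.79 after it at day 6.

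At day 6, 5320 genes were higher and 5225 lower in IAA than in DMSO, which is 30.6% and 30% of the 17394 tested and 60.6% in all. At least 2-fold differences were fewer, with 1486 genes higher and 1225 lower, and 357 and 305 passed 4-fold. With genes on chromosomes 8, 12 and 14 left out, a choice made after seeing the data, 4637 were higher and 4332 lower. The libraries of the groups did not overlap for 63.2% of the genes tested. Since most genes passed the test, counts over the gene lists below are read against 30.6% higher and 30% lower, and the median over all genes was 0.0014. Every list was chosen with earlier results of these data known.

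**Figure D3:**
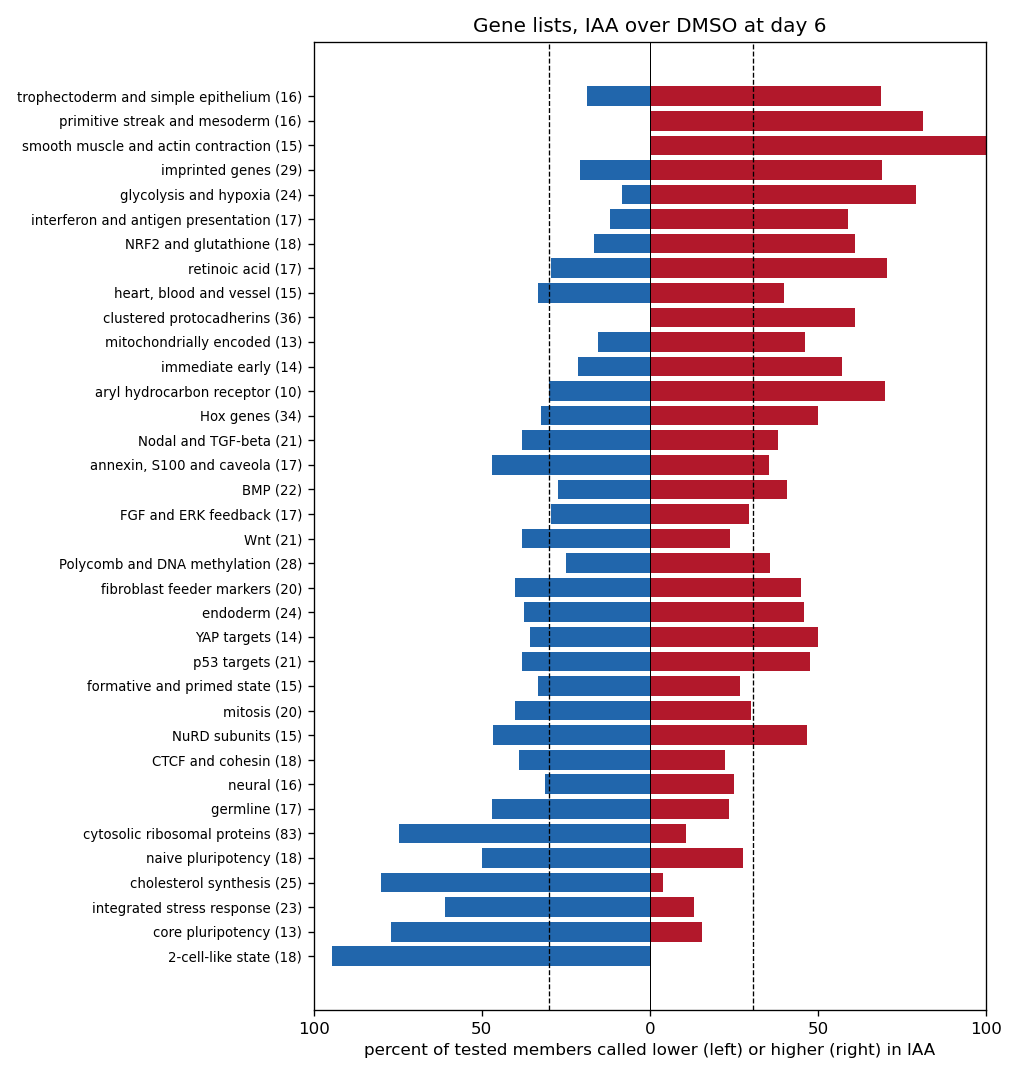
Percent of the tested members of each of 36 gene lists that were called lower (left, blue) or higher (right, red) in IAA than in DMSO at day 6, ordered by the list's median log2 fold change, with the number tested in brackets. Dashed lines mark the 30% and 30.6% of all genes called lower and higher; the 2-cell-like list lies far left with 17 of 18 lower and smooth muscle far right with 15 of 15 higher.

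No member of the CTCF and cohesin list reached a 2-fold difference. In this list, of 18 tested, 4 were higher, 7 lower and 7 did not pass the test (median -0.094). Ctcf itself had 264, 279 and 252 CPM in the IAA libraries, against 285, 295 and 292 CPM in the DMSO libraries. The IAA libraries were all below the DMSO libraries, by a log2 fold change of -0.13 ± 0.041 (edgeR quasi-likelihood adjusted p = 0.00437), and Ctcf lies on chromosome 8. An auxin degron acts on protein, so the RNA of a gene checks nothing about its breakdown. Rad21, the cohesin subunit that closes the ring, was at 848 ± 19.7 CPM in IAA and 996 ± 16.9 CPM in DMSO (log2 fold change -0.23 ± 0.037). Smc3, a core subunit, was at 601 ± 54.2 CPM in IAA and 584 ± 43.2 CPM in DMSO and did not pass the test. The cohesin release factor Wapl was higher (log2 fold change 0.81 ± 0.039), on the first part of chromosome 14, and so was the loader Nipbl (0.49 ± 0.048), on chromosome 15. Stag1, which holds the ring on DNA, was lower (-0.34 ± 0.037), and Zfp143, a zinc finger factor found at loop ends, was higher (0.49 ± 0.057).

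The NuRD subunits changed in both directions: of 15 tested, 7 were higher, 7 lower and 1 did not pass the test (median -0.087). Without the first IAA library, 4 were lower. The largest rise was in Rbbp7, a histone-binding subunit on X, with 821, 863 and 813 CPM in the IAA libraries, against 399, 399.7 and 425 CPM in the DMSO libraries. The IAA values were all near or above 813 CPM and did not meet those of DMSO (log2 fold change 1.03 ± 0.040). Hdac1, a deacetylase, was lower at 64.5 ± 3.70 CPM in IAA and 127 ± 7.25 CPM in DMSO (log2 fold change -0.98 ± 0.053), while its paralog Hdac2 was higher (0.36 ± 0.095). The ATPase Chd4 was higher (0.51 ± 0.044, 1615 CPM in IAA against 1137 CPM in DMSO), and Chd3 (-0.14 ± 0.050) and Chd5 (-0.35 ± 0.12) were lower. Gatad2b rose by 0.83 ± 0.049, as did Gatad2a (0.30 ± 0.043, chromosome 8), Mta1 (0.43 ± 0.040, chromosome 12) and Mbd2 (0.26 ± 0.057). Mbd3 (-0.50 ± 0.043), Cdk2ap1 (-0.44 ± 0.064), Rbbp4 (-0.32 ± 0.046) and Mta2 (-0.13 ± 0.055) were lower. Mta3 had a log2 fold change of -0.087 ± 0.044 and did not pass the test.

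Among Polycomb and DNA methylation genes, of 28 tested, 10 were higher, 7 lower and 11 did not pass the test (median 0.035). Dnmt3b, a de novo DNA methyltransferase, was lower with 48.1, 46.5 and 43.5 CPM in the IAA libraries, against 104, 94.1 and 102 CPM in the DMSO libraries. The groups did not overlap (log2 fold change -1.12 ± 0.056). Uhrf1, which brings Dnmt1 to replicating DNA, was also lower (-0.81 ± 0.039, 219 CPM in IAA against 385 CPM in DMSO). The TET enzymes, which oxidise methylated cytosine, were higher: Tet1 by 0.76 ± 0.056, Tet2 by 0.80 ± 0.048 and Tet3 by 0.57 ± 0.066. Cbx6, a chromodomain subunit of Polycomb, was higher (0.85 ± 0.060). The Polycomb core genes Ezh2 (-0.10 ± 0.048) and Suz12 (0.010 ± 0.043) did not pass the test, while Eed was higher by a small step (0.13).

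Most of the core pluripotency factors were lower: of 13 tested, 2 were higher, 10 lower and 1 did not pass the test (median -0.65). Nanog had 6.28, 5.94 and 5.71 CPM in the IAA libraries, against 16.99, 20.3 and 21.1 CPM in the DMSO libraries, and the groups were far apart (log2 fold change -1.67 ± 0.12). Sox2 was lower by a log2 fold change of -0.65 ± 0.062. Zscan10, a zinc finger factor of stem cells, fell further (-2.29 ± 0.20), and the paired stem cell factors Dppa2 (-0.94 ± 0.065) and Dppa4 (-1.14 ± 0.083) were lower too. Pou5f1 was at 219.6 ± 9.47 CPM in IAA and 208 ± 11.1 CPM in DMSO and did not pass the test. The opposite was seen for Tdgf1, the Nodal co-receptor, which was higher with 44.3, 49.4 and 43.5 CPM in the IAA libraries, against 9.10, 10.9 and 9.29 CPM in the DMSO libraries (log2 fold change 2.24 ± 0.089), and Lin28a, an RNA-binding protein (0.85 ± 0.052).

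In the naive list, of 18 tested, 5 were higher, 9 lower and 4 did not pass the test (median -0.27), and 6 of its members lie on chromosomes 8, 12 and 14. Leaving those out, 5 were higher and 3 lower. The 6 left out were all lower. Klf2 (-1.55) and Zfp42 (-0.22) lie on chromosome 8, whose median was 0.18. Esrrb (-0.75) and Tcl1 (-4.02, from 1 count in IAA and 31 in DMSO) lie on chromosome 12, whose median was 0.33. Only Tdh (-1.14) and Klf5 lie on the second part of chromosome 14, whose median was below 0. Tet2 (0.80 ± 0.048) and Dppa3, a maternal factor that shields DNA methylation (1.56 ± 0.12), were higher, as was Pecam1, an adhesion protein (0.62 ± 0.054). Klf5, on the second part of chromosome 14, was lower (-0.78 ± 0.059), as were Dppa5a (-0.39 ± 0.050) and Nr0b1 (-2.05 ± 0.18). In the formative and primed list, of 15 tested, 4 were higher, 5 lower and 6 did not pass the test (median -0.015), and 2 were higher without the third IAA library and without the second or the third DMSO library. The methyltransferase Dnmt3a (0.47 ± 0.039, chromosome 12) and the epithelial factor Grhl2 (1.05 ± 0.14) were higher, and Zic2, a zinc finger factor on the second part of chromosome 14, was lower (-1.26 ± 0.16). Otx2, a primed state factor on the second part of chromosome 14, was low in both groups, at 0.694 CPM in IAA against 3.13 CPM in DMSO (-2.19 ± 0.30).

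The lowest genes of the comparison included secreted proteins with little RNA left in IAA. Gkn1, which encodes gastrokine 1, a secreted protein of the stomach lining, had 0.475, 0.258 and 0.486 CPM in the IAA libraries, against 105, 104 and 105 CPM in the DMSO libraries. All 3 IAA libraries were near 0, from 11 counts in all against 4003 in DMSO (log2 fold change -7.93 ± 0.16, edgeR quasi-likelihood adjusted p = 1.12e-37). Gkn2, its neighbour, had 0.951, 0.388 and 1.09 CPM in the IAA libraries, against 106, 99.94 and 110.2 CPM in the DMSO libraries (log2 fold change -6.97 ± 0.14). Gkn1 lies at chr6:87345650-87350942 and Gkn2 at chr6:87373357-87379497 (GRCm38). Gkn3, the third gene there, was at 1.29 ± 0.114 CPM in IAA and 0.661 ± 0.122 CPM in DMSO and did not pass the test. Mucl3, a mucin-like gene at chr17:35635752-35643695, had 0.951, 1.03 and 0.607 CPM in the IAA libraries, against 105, 108 and 106 CPM in the DMSO libraries (log2 fold change -6.91 ± 0.12). In DMSO these genes were highest at day 6: Gkn1 was at 16.4 CPM at day 0, 19.4 CPM at day 4 and 105 CPM at day 6, and Mucl3 at 9.79, 13.9 and 106 CPM.

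Cyp1a1, a detoxifying enzyme and target of the aryl hydrocarbon receptor, had 3 counts in the IAA libraries and 232 in the DMSO libraries, a rate 53.6 times higher in DMSO (exact 95% interval 18.1 to 262, counting error only). Fgf3, an FGF ligand, had 3 counts in the IAA libraries and 224 in the DMSO libraries, a rate 51.8 times higher in DMSO (17.5 to 253). Myo7a, an unconventional myosin, had 4.47, 3.36 and 4.01 CPM in the IAA libraries, against 70.7, 75.3 and 72.1 CPM in the DMSO libraries, and its log2 fold change was -4.18 ± 0.089. Tcf23, a helix-loop-helix factor, was at 0.824 ± 0.316 CPM in IAA and 12.05 ± 0.459 CPM in DMSO (log2 fold change -3.90 ± 0.22). Trpc5os, antisense to Trpc5 on X, had -4.25 ± 0.23, but whether counting used strand is not stated, and its reads cannot be told apart from those of Trpc5.

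Stra8, which retinoic acid induces in germ cells before meiosis, was among the genes with the smallest p-values. It had 418, 419 and 394 CPM in the IAA libraries, against 2535, 2631 and 2460.4 CPM in the DMSO libraries. The groups were far apart at a log2 fold change of -2.63 ± 0.043 (adjusted p = 1.21e-42, edgeR quasi-likelihood test). Spp1, the secreted matrix protein osteopontin, was lower too, at 91.6 ± 1.45 CPM in IAA and 527 ± 26.9 CPM in DMSO (log2 fold change -2.52 ± 0.054). Txnip, an arrestin family protein that limits glucose uptake, had 554, 544 and 539 CPM in the IAA libraries, against 97.6, 103 and 97.4 CPM in the DMSO libraries. Every IAA library exceeded every DMSO library (log2 fold change 2.46 ± 0.042).

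**Figure D4:**
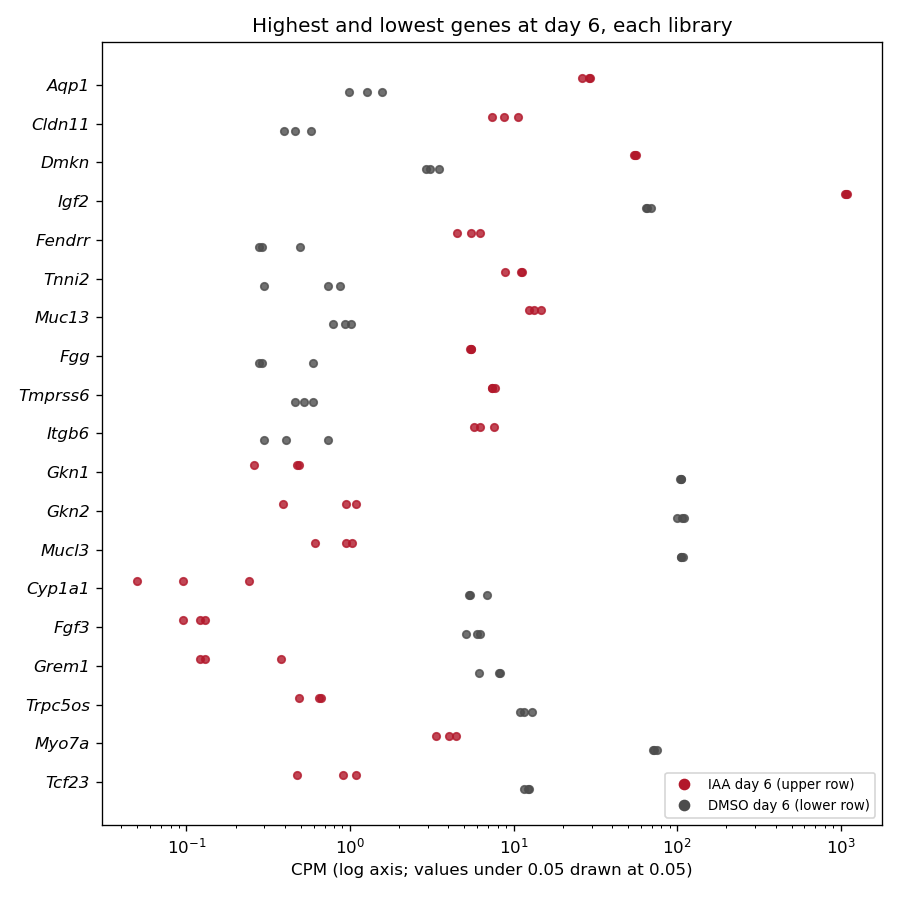
CPM (log axis) of 19 of the genes with the highest (10) and the lowest (9) log2 fold changes at day 6 by the naming rule, 1 point per library, with IAA in the upper row and DMSO in the lower row of each gene. The groups do not overlap for any of the 19 genes, which the rule required; Gkn1 is at 0.407 CPM on average in IAA and 105 CPM in DMSO.

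Igf2 and the gene model Gm49394 that overlaps it had the smallest p-values. Igf2 encodes a fetal growth factor and is imprinted, with expression from the paternal copy. It had 1083, 1064 and 1085 CPM in the IAA libraries, against 65.9, 69.04 and 64.5 CPM in the DMSO libraries. All IAA libraries were above all DMSO libraries (log2 fold change 4.02 ± 0.053, adjusted p = 5.91e-47, edgeR quasi-likelihood test). Igf2 lies at chr7:142650766-142666816 on GRCm38, and Gm49394, at chr7:142650769-142669942, had near the same value (4.01 ± 0.052), and the overlap leaves reads of either uncertain. Other genes of this region were higher as well: Tnni2, a fast muscle troponin (3.91 ± 0.28, 10.4 CPM in IAA against 0.634 CPM in DMSO), Lsp1 (2.91 ± 0.18) and Tnnt3 (3.47 ± 0.20). H19, a noncoding RNA at chr7:142575529-142578143 that is expressed from the maternal copy, was at 354 ± 8.51 CPM in IAA and 353 ± 14.5 CPM in DMSO and did not pass the test (log2 fold change 0.0050 ± 0.053). Mrpl23, between Tnnt3 and H19, was lower (-0.37 ± 0.10). Of 9 genes tested in this region, 6 were higher and 2 lower. The second lower gene was Mir675 (-0.18), which lies within H19. Gm49394 and Igf2os overlap Igf2, so the 9 genes may share reads and are not independent.

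The Dlk1 and Meg3 locus on chromosome 12 was higher throughout, on a chromosome whose median was 0.33. All 19 genes tested between Dlk1 and Mir3072 were higher. Many of them are small RNA genes that lie within or across Meg3, Rtl1, Rian or Mirg. Their counts may repeat reads of those transcripts, so the 19 are not independent. Meg3, a noncoding RNA of the maternal copy, had 809.6, 820.5 and 822 CPM in the IAA libraries, against 197, 202 and 200.4 CPM in the DMSO libraries (log2 fold change 2.03 ± 0.041). Dlk1, a Notch ligand relative expressed from the paternal copy, was at 190.5 ± 12.3 CPM in IAA and 28.1 ± 0.302 CPM in DMSO (log2 fold change 2.76 ± 0.061). Rtl1, a retrotransposon-derived gene, was higher by 3.58 ± 0.29, with antisense transcripts that cannot be told apart from it here. Rian (1.29 ± 0.042) and Mirg (1.43 ± 0.078), noncoding RNAs of the maternal copy, rose less. The locus held genes of both parental copies among those higher.

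Over the list of imprinted genes, of 29 tested, 20 were higher, 6 lower and 3 did not pass the test (median 0.97), and 15 were higher without those on chromosome 12. Plagl1, a zinc finger factor, had 607, 665 and 625 CPM in the IAA libraries, against 116, 118 and 113 CPM in the DMSO libraries (log2 fold change 2.45 ± 0.055). Peg3 (1.28 ± 0.039, 3206 CPM in IAA against 1319 CPM in DMSO), Peg10 (1.06 ± 0.037), Mest (0.78 ± 0.042), Slc38a4 (0.97 ± 0.038) and the growth inhibitor Cdkn1c (1.68 ± 0.090) were higher. Nnat (-2.04 ± 0.089), Impact (-0.71 ± 0.050) and Grb10, an adaptor that limits insulin signalling (-0.82 ± 0.12), were lower. Airn, antisense to Igf2r, was higher (2.44 ± 0.13) while Igf2r (-0.056 ± 0.041) did not pass the test. Whether counting used strand is not stated, so their reads cannot be told apart where they overlap.

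Contractile genes rose together. In the smooth muscle list, of 15 tested, 15 were higher, 0 lower and 0 did not pass the test (median 1.24). Acta2, smooth muscle actin, had 62.6, 59.2 and 58.4 CPM in the IAA libraries, against 5.45, 8.02 and 7.55 CPM in the DMSO libraries. No library of the groups overlapped (log2 fold change 3.15 ± 0.100). Des, the intermediate filament desmin, was at 49.3 ± 2.29 CPM in IAA and 6.23 ± 0.130 CPM in DMSO (log2 fold change 2.97 ± 0.094). Tpm1, a tropomyosin, reached 1794 CPM in IAA against 681 CPM in DMSO (1.40 ± 0.050), and Myl9, a myosin light chain, was higher by 1.85 ± 0.085, as was Tagln, the actin-binding transgelin (1.81 ± 0.070). Srf, the transcription factor that drives many contractile genes, was higher by 0.40 ± 0.063.

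The mesoderm list moved the same way: of 16 tested, 13 were higher, 0 lower and 3 did not pass the test (median 1.27). With the 5 members on chromosomes 8, 12 and 14 left out, 8 of 11 were higher and 0 lower. Fendrr, a noncoding RNA beside Foxf1 on chromosome 8, had 6.28, 4.52 and 5.46 CPM in the IAA libraries, against 0.290, 0.495 and 0.276 CPM in the DMSO libraries, and Foxf1, a factor of lateral mesoderm, was at 16.1 ± 1.32 CPM in IAA and 4.86 ± 0.658 CPM in DMSO (1.74 ± 0.14). The start sites of the pair lie close together on opposite strands, and reads of opposite strands cannot be told apart. Snai2, a regulator of the epithelial to mesenchymal transition (2.02 ± 0.19), Foxc1 (1.39 ± 0.20), Twist1 (1.67 ± 0.15, chromosome 12) and the VEGF receptor Kdr (1.45 ± 0.10) were higher. T, the primitive streak factor, was at 0.196 CPM in IAA against 0.123 CPM in DMSO and did not pass the test.

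Among YAP targets, of 14 tested, 7 were higher, 5 lower and 2 did not pass the test (median 0.0090). Ankrd1 (3.21 ± 0.19), Ccn1, a matrix-associated growth regulator (2.02 ± 0.062, 134 CPM in IAA against 33.3 CPM in DMSO), and Amotl2 (1.69 ± 0.045) were higher, and Ccn2 (-1.77 ± 0.060, 29.2 CPM in IAA against 100.01 CPM in DMSO) and Crim1 (-1.39 ± 0.059) lower. Fibroblast markers also moved in both directions: of 20 tested, 9 were higher, 8 lower and 3 did not pass the test (median 0.013). Without the third IAA library 5 were lower. The fibrillar collagens Col1a1, Col1a2 and Col3a1 summed to 199 to 209 CPM in IAA and 57.9 to 63.4 CPM in DMSO (exact permutation test over 3 against 3 libraries, two-sided, p = 0.1, the smallest it allows). The whole list of 21 markers summed to 1149 to 1193 CPM in IAA and 1036 to 1096 CPM in DMSO, with none at 0. Col3a1 had 97.4, 111 and 101 CPM in the IAA libraries, against 19.4, 22.98 and 16.7 CPM in the DMSO libraries, and its log2 fold change was 2.39 ± 0.081, and the matrix protease Mmp2 was higher too (1.53 ± 0.078, chromosome 8). By contrast, Fbln2, a matrix protein (-1.98 ± 0.15), and Lox, which cross-links collagen (-3.01 ± 0.30), were lower, as was the fibroblast surface protein Thy1 (-1.74 ± 0.61). What part feeder cells play in these values was not tested, and more cells of a type and more RNA per cell cannot be told apart in bulk libraries.

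Epithelial genes were higher: in the trophectoderm and simple epithelium list, of 16 tested, 11 were higher, 3 lower and 2 did not pass the test (median 1.57), and 1 was lower without the second DMSO library. Krt18, a keratin of simple epithelia, had 267, 259 and 255 CPM in the IAA libraries, against 59.9, 61.4 and 64.2 CPM in the DMSO libraries (log2 fold change 2.08 ± 0.050). Krt8, its partner, was at 167 ± 8.53 CPM in IAA and 76.2 ± 1.74 CPM in DMSO (1.14 ± 0.049), Krt19 was higher by 2.21 ± 0.075 and the tight junction gene Cldn6 by 1.94 ± 0.082. E-cadherin, Cdh1, on chromosome 8, was higher by 1.51 ± 0.041 (376 CPM in IAA against 132 CPM in DMSO), and the trophectoderm factors Gata3 (1.83 ± 0.12) and Cdx2 (2.95 ± 0.45) also rose, Cdx2 at only 2.12 CPM in IAA against 0.268 CPM in DMSO. Other members of the list did not rise: Tead4 (-0.33), Esx1 (-0.23) and Dsp (-0.12) were lower, and Tfap2c (0.15) and Tfap2a (0.44) did not pass.

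The endoderm list gave no common direction: of 24 tested, 11 were higher, 9 lower and 4 did not pass the test (median 0.011). Secreted liver and yolk sac proteins were higher, led by Apoa1, the main protein of high density lipoprotein, with 74.5, 76.8 and 80.4 CPM in the IAA libraries, against 6.09, 6.54 and 6.26 CPM in the DMSO libraries (log2 fold change 3.62 ± 0.10). Afp, alpha-fetoprotein, a fetal plasma protein (2.83 ± 0.15), Ttr, a thyroid hormone carrier (2.95 ± 0.11), Apoa4 (2.60 ± 0.13) and Apob (2.37 ± 0.088, chromosome 12) followed. Rbp4, the retinol carrier in blood, was higher as well (2.38 ± 0.10). Of the transcription factors, Sox17 (-0.79 ± 0.070, 34.5 CPM in IAA against 60.2 CPM in DMSO) and Gata4 (-0.67 ± 0.067, second part of chromosome 14) were lower, Foxa1 (1.17 ± 0.12, chromosome 12) and Hnf4a (0.57 ± 0.15) higher, and Gata6 (-0.081 ± 0.048) and Foxa2 (-0.041 ± 0.081) did not pass the test. Basement membrane genes were abundant in both groups. Col4a1, on chromosome 8, was at 6369 ± 212 CPM in IAA and 4385 ± 280.00 CPM in DMSO (0.54 ± 0.041), and Lamc1, a laminin chain, at 2991 ± 103 CPM in IAA and 4507 ± 185 CPM in DMSO (-0.59 ± 0.043). Another laminin chain, Lama1, was lower (-0.75 ± 0.031).

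Other genes that stood highest were membrane and secreted proteins. Aqp1, a water channel, had 29.2, 29.1 and 26.2 CPM in the IAA libraries, against 1.28, 0.991 and 1.56 CPM in the DMSO libraries (log2 fold change 4.45 ± 0.17). Cldn11, a tight junction claudin, was at 8.95 ± 1.63 CPM in IAA and 0.479 ± 0.0932 CPM in DMSO, Dmkn, a secreted epidermal protein, at 55.2 ± 0.521 CPM in IAA and 3.16 ± 0.308 CPM in DMSO, and Muc13, a membrane mucin, at 13.5 ± 1.19 CPM in IAA and 0.911 ± 0.111 CPM in DMSO. Fgg, a chain of fibrinogen (3.85 ± 0.32), Tmprss6, a protease that limits hepcidin (3.80 ± 0.27), and Itgb6, an integrin chain of epithelia (3.76 ± 0.32), were at 0.387, 0.525 and 0.480 CPM in DMSO.

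BMP signals are held back outside the cell by antagonists that bind the ligands. Over the BMP list, of 22 tested, 9 were higher, 6 lower and 7 did not pass the test (median 0.053). With the 4 members on chromosomes 8, 12 and 14 left out, 5 of 18 were higher and 6 lower. The antagonist Grem1 had 0.380, 0.129 and 0.121 CPM in the IAA libraries, against 8.12, 6.14 and 8.28 CPM in the DMSO libraries (log2 fold change -4.99 ± 0.33), and Nog, which encodes noggin, had a log2 fold change of -3.57 ± 0.27. Chrd, which encodes the antagonist chordin, was at 0.908 CPM in IAA against 0.972 CPM in DMSO and did not pass the test (-0.16 ± 0.41). Fst, follistatin, which binds activins, had 13.5, 17.96 and 15.4 CPM in the IAA libraries, against 103, 96.1 and 108 CPM in the DMSO libraries (-2.73 ± 0.073). In the cell, the inhibitory Smad6 (1.17 ± 0.18) and the targets Id1 (0.56 ± 0.075) and Id2 (0.50 ± 0.061, chromosome 12) were higher, while Id4 was lower (-0.57 ± 0.17) and Id3 (-0.026 ± 0.12) did not pass the test. Of the ligands, Bmp4 was higher (0.56, chromosome 14), and Bmp2 (0.040 ± 0.11) and Bmp7 (0.060 ± 0.11) did not pass.

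In the Nodal and TGF-beta list, of 21 tested, 8 were higher, 8 lower and 5 did not pass the test (median 0.099). Lefty2 and Lefty1, Nodal targets and inhibitors, were lower (-2.19 ± 0.26 and -1.14 ± 0.26), as was Nodal (-1.41 ± 0.31, 0.919 CPM in IAA against 2.46 CPM in DMSO), while its co-receptor Tdgf1 and the ligand Tgfb2 (12.4 CPM in IAA against 2.94 CPM in DMSO) were higher, as was the activin receptor Acvr2a (0.49 ± 0.072). Over the Wnt list, of 21 tested, 5 were higher, 8 lower and 8 did not pass the test (median 0.036): Wnt5a, a ligand on the first part of chromosome 14, was higher (2.13 ± 0.096, 35.1 CPM in IAA against 7.94 CPM in DMSO), as was Sfrp1, a secreted Wnt binder (0.68 ± 0.078, chromosome 8), and Axin2 (-0.47 ± 0.12), Sfrp5 (-1.50 ± 0.11) and Ctnnb1 (-0.29 ± 0.035) were lower. For FGF and ERK feedback, of 17 tested, 5 were higher, 5 lower and 7 did not pass the test (median 0.046), and 8 were lower without the second IAA library. Etv5, a target of FGF signals, was lower (-1.28 ± 0.16), as was the feedback inhibitor Spry2 (-1.15 ± 0.12, second part of chromosome 14), while its relative Spry1 (0.85 ± 0.12) and the receptor Fgfr2 (0.49 ± 0.057) were higher.

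In the retinoic acid list every member passed: of 17 tested, 12 were higher, 5 lower and 0 did not pass the test (median 0.42). The synthesis enzymes Aldh1a1 (1.68 ± 0.10) and Aldh1a2 (1.38 ± 0.12) and the receptor Rarb (0.86 ± 0.053, first part of chromosome 14) were higher, as was the degrading enzyme Cyp26b1 (0.87 ± 0.045, 438 CPM in IAA against 240.1 CPM in DMSO). So was Stra6, a receptor for the retinol carrier (0.99 ± 0.060). The related enzyme Cyp26a1 was lower (-0.61 ± 0.040, 444 CPM in IAA against 679 CPM in DMSO), beside Stra8.

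Genes of the 2-cell-like state, a rare state of stem cells that resembles the early embryo, were lower almost throughout: of 18 tested, 0 were higher, 17 lower and 1 did not pass the test (median -1.56). Zscan4d had 38.04, 36.3 and 32.9 CPM in the IAA libraries, against 103, 96.3 and 105 CPM in the DMSO libraries (log2 fold change -1.50 ± 0.059), and its copy Zscan4c had a log2 fold change of -1.80 ± 0.071. Zfp352 was at 0.571 ± 0.245 CPM in IAA and 5.34 ± 0.00782 CPM in DMSO (-3.21 ± 0.27) and Tcstv1 had a log2 fold change of -2.02 ± 0.19. Tdpoz4 had 3 counts in IAA and 72 in DMSO. The Zscan4 and Usp17l copies are near-identical, so their counts are not independent and each value is uncertain. Duxf3, upstream of this state, was at 5.30 CPM in IAA against 4.44 CPM in DMSO and did not pass the test. Among germline genes, of 17 tested, 4 were higher, 8 lower and 5 did not pass the test (median -0.17): Dazl, an RNA-binding protein of germ cells, had 178, 179 and 185 CPM in the IAA libraries, against 509, 497 and 518 CPM in the DMSO libraries (-1.49 ± 0.043), Ddx4, an RNA helicase, was higher (0.82 ± 0.065) and Stk31 lower (-0.55 ± 0.074).

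Of the glycolysis and hypoxia genes, of 24 tested, 19 were higher, 2 lower and 3 did not pass the test (median 0.76), and 1 was lower without the third IAA library. Ldha, lactate dehydrogenase, had 441, 422 and 443 CPM in the IAA libraries, against 229, 212 and 209 CPM in the DMSO libraries (log2 fold change 1.00 ± 0.038). Pgk1 (0.84 ± 0.050), Aldoa (0.79 ± 0.042), the glucose transporter Slc2a3 (0.95 ± 0.038), the growth factor Vegfa (1.08 ± 0.053) and Bnip3, a mitophagy receptor (0.96 ± 0.064), were also higher, and P4ha2 was lower (125 CPM in IAA against 251 CPM in DMSO). The core of the hypoxia response element, ACGTG on either strand, stood in the promoter windows (250 bases before to 50 after the start, RefSeq, GRCm38.p6) of 16 of 22 members with a window, against 21.8% of 27025 genes. The 18 members that were higher held it in 12 windows, and the 4 others, among them P4ha2, in 4. For the smooth muscle list the CArG box, the site that Srf binds, stood in 4 of 13 windows, against 1.81% of genes. These are matches of letters and not measured sites. The shares over genes are of all 27025 with a window, not only of those tested, so they are not of a like set. A gene with several windows was counted if any of them held a match. Windows of 3 glycolysis and hypoxia genes and of Myl9 are given to show where the matches lie, in lower case with the matches in capitals, 5′ to 3′.
P4ha1 (chr10:59323046-59323345, + strand): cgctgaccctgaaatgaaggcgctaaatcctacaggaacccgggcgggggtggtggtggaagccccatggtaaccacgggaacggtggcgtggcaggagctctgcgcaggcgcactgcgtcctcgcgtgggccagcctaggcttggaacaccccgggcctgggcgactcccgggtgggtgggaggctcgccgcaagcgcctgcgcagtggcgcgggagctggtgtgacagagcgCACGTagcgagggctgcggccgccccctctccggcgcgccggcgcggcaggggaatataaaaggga
Pgk1 (chrX:106186850-106187149, + strand): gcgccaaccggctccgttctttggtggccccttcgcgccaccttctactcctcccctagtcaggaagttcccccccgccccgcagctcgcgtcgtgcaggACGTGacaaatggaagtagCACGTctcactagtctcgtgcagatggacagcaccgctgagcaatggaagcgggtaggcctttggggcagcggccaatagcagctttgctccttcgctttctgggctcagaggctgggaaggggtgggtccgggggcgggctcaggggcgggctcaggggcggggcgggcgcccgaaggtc
Bnip3 (chr7:138909457-138909756, - strand): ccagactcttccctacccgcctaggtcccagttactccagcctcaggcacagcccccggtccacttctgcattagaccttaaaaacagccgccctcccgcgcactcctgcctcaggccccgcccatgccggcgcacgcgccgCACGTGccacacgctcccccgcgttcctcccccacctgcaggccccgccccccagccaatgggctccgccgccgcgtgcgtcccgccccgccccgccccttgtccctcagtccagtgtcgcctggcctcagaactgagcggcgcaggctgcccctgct
Myl9 (chr2:156775214-156775513, + strand): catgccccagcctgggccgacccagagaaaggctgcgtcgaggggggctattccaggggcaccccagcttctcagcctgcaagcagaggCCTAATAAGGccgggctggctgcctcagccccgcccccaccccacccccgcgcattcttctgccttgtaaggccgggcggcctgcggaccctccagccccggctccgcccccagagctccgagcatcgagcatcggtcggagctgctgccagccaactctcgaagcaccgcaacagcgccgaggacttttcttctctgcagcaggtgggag

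Synthesis pathways went the other way. In the cholesterol list, of 25 tested, 1 was higher, 20 lower and 4 did not pass the test (median -0.33). Fdft1, squalene synthase, on the second part of chromosome 14, had -0.84 ± 0.056, Mvk -1.39 ± 0.14, Acat2 -0.75 ± 0.062, Ebp -1.02 ± 0.10 and Fdps -0.90 ± 0.094, while Insig1, which holds the pathway back, was higher (0.92 ± 0.049, 113 CPM in IAA against 59.3 CPM in DMSO). Of the cytosolic ribosomal protein genes, of 83 tested, 9 were higher, 62 lower and 12 did not pass the test (median -0.25), so that most members were lower by a small step, with Rpl30 at -0.70 ± 0.047 and Rps3a1 at -0.64 ± 0.054. In the integrated stress response list, of 23 tested, 3 were higher, 14 lower and 6 did not pass the test (median -0.46). The 3 higher were Stc2 (0.50), Phgdh (0.22) and Ddit3 (0.34), and another gene ID of Ddit3 did not pass (0.054). Nupr1 had 1.14, 1.68 and 2.06 CPM in the IAA libraries, against 13.6, 16.7 and 15.00 CPM in the DMSO libraries (-3.22 ± 0.17), and Atf3 (-1.50 ± 0.12), Asns, asparagine synthetase (-0.89 ± 0.057), the mitochondrial enzymes Mthfd2 (-0.79 ± 0.061) and Pck2 (-1.07 ± 0.085, second part of chromosome 14), and Atf4, the factor that drives the response (-0.46 ± 0.051), were lower as well.

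For NRF2 and glutathione genes, of 18 tested, 11 were higher, 3 lower and 4 did not pass the test (median 0.55). Gstm1, a glutathione transferase, had 209, 212 and 255 CPM in the IAA libraries, against 29.5, 31.1 and 34.4 CPM in the DMSO libraries (2.84 ± 0.071); it has close relatives, so reads may be shared. Nfe2l2, which encodes NRF2, was higher (0.82 ± 0.041), as were Txnrd1, a thioredoxin reductase (0.70 ± 0.043), and Tkt, transketolase (0.92 ± 0.051, first part of chromosome 14). For the aryl hydrocarbon receptor list, of 10 tested, 7 were higher, 3 lower and 0 did not pass the test (median 0.23), with Cyp1a1 lower and Nqo1 (1.39 ± 0.091, chromosome 8) and the receptor gene Ahr (0.94 ± 0.13, chromosome 12) higher. Among p53 targets, of 21 tested, 10 were higher, 8 lower and 3 did not pass the test (median -0.011): Cdkn1a, a cell cycle inhibitor, was higher (0.54 ± 0.083), as was Zmat3 (0.79 ± 0.062), and the kinase Plk3 (-1.78 ± 0.14), the cell death gene Bax (-0.92 ± 0.064) and Trp53 itself (-0.63 ± 0.073) lower. Mitosis genes showed small values, and of 20 tested, 6 were higher, 8 lower and 6 did not pass the test (median -0.071). Cyclin B1, Ccnb1 (-0.41 ± 0.045), and Cdc20 (-0.43 ± 0.055) were lower, and the kinesin Cenpe was higher (0.33 ± 0.055).

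Of the interferon and antigen presentation list, of 17 tested, 10 were higher, 2 lower and 5 did not pass the test (median 0.73), and 0 were lower without the third IAA library and 1 without the third DMSO library. Stat2, a transducer of interferon signals, was at 85.9 ± 2.85 CPM in IAA and 43.5 ± 6.86 CPM in DMSO (0.99 ± 0.072), and the antiviral membrane proteins Ifitm3 (1.00 ± 0.10) and Bst2 (1.44 ± 0.16, chromosome 8) were higher. The immediate early genes gave 8 higher and 3 lower of 14, with Jun at 0.85 ± 0.054, Fosl2 at 1.13 ± 0.080 and Ier3 at 2.43 ± 0.27, and 1 was lower without the first or the third IAA library and without the first DMSO library. Leaving out the 5 members on chromosomes 8, 12 and 14, 4 of 9 were higher and 2 lower. Mitochondrially encoded genes took 1.98 to 2.14% of counts in IAA and 1.67 to 1.71% in DMSO (exact permutation test, two-sided, p = 0.1, the smallest 3 against 3 allows). In this list, of 13 tested, 6 were higher, 2 lower and 5 did not pass the test (median 0.26). mt-Nd6, which is read from the other strand than the rest, had 96.1, 129 and 101 CPM in the IAA libraries, against 19.4, 22.6 and 21.2 CPM in the DMSO libraries (2.38 ± 0.12), and reads of the transcripts across from it cannot be told apart where strand is not used. mt-Co1 was higher (0.81 ± 0.042) and mt-Cytb lower (-0.20 ± 0.048). mt-Nd3 had 2.38, 2.84 and 2.79 CPM in the IAA libraries, against 28.2, 4.75 and 5.71 CPM in the DMSO libraries (-2.47 ± 0.54), with the first DMSO library far above the others. Without that library the log2 fold change of mt-Nd3 was -0.98, and it did not pass the test.

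Hox genes, which set position along the body axis, moved by cluster member rather than as a whole: of 34 tested, 17 were higher, 11 lower and 6 did not pass the test (median 0.21). Hoxb8 (-1.29 ± 0.061, 35.9 CPM in IAA against 87.7 CPM in DMSO), Hoxb6 (27.1 CPM in IAA against 54.2 CPM in DMSO) and Hoxb5 (-1.38 ± 0.12) were lower while Hoxb7 between them was higher (0.98 ± 0.11, 24.1 CPM in IAA against 12.2 CPM in DMSO). Hoxb2 (-1.40 ± 0.098) and Hoxa5 (-0.81 ± 0.069) were lower as well, and Hoxc6 (1.88 ± 0.16) and Hoxc8 (0.93 ± 0.095) higher. Genes within these clusters overlap noncoding transcripts, and strand is not known. Of the clustered protocadherins, adhesion genes whose promoter choice is known to depend on CTCF, of 36 tested, 22 were higher, 0 lower and 14 did not pass the test (median 0.30). Those higher were the 21 gamma members tested, with log2 fold changes between 0.27 and 0.50, and the 1 beta member tested, Pcdhb22 (1.32 ± 0.28). The 14 alpha members had values between -0.60 and -0.33 and did not pass. Members of the gamma cluster share 3′ exons, as do those of the alpha cluster, so the gamma values repeat much the same counts and the count of members is not one of independent genes. Neural genes had no common direction, with 4 higher and 5 lower of 16. Sox11 (1.81 ± 0.059, chromosome 12), the intermediate filament Nes (1.08 ± 0.066) and the microtubule protein Dcx (2.03 ± 0.19) were higher, and Sox1, an early neural factor (-2.02 ± 0.16, chromosome 8), and Stmn2 (-1.09 ± 0.12) lower.

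In the list for heart, blood and vessel, of 15 tested, 6 were higher, 5 lower and 4 did not pass the test (median 0.32). Summed markers of blood, endothelium and heart muscle were low. This does not hold for the fibroblast list, which summed to 1149 to 1193 CPM in IAA and 1036 to 1096 CPM in DMSO. Nor does it hold for the basement membrane genes of the endoderm list. The blood markers summed to 31.4 to 32.9 CPM in IAA and 8.32 to 8.93 CPM in DMSO, nearly all from Cd68, a macrophage marker (31.9 ± 0.783 CPM in IAA and 8.23 ± 0.609 CPM in DMSO, log2 fold change 1.96 ± 0.091), and Hbb-bh1 was at 0 in all 6 libraries. The endothelial markers Cdh5, Tek, Tie1 and Emcn summed to 16.9 to 19.5 CPM in IAA and 31.01 to 37.6 CPM in DMSO. Tek, an angiopoietin receptor (-1.45 ± 0.14), and Cdh5, a cadherin of vessels (10.9 CPM in IAA against 21.8 CPM in DMSO, chromosome 8), were lower, while Emcn, a surface protein of vessels (3.52 ± 0.47, 1.98 CPM in IAA against 0.166 CPM in DMSO), and Flt1, a VEGF receptor (0.76 ± 0.12), were higher. The heart muscle markers Nkx2-5, Tnnt2, Myh6 and Myl7 summed to 8.14 to 9.96 CPM in IAA and 12.7 to 14.8 CPM in DMSO, and their members moved both ways. The cardiac myosin heavy chains Myh6 (-2.30 ± 0.16) and Myh7 (-2.09 ± 0.24), on the second part of chromosome 14, were lower. Cardiac actin Actc1 (3.43 ± 0.27, 7.67 CPM in IAA against 0.733 CPM in DMSO) and the atrial myosin light chain Myl7 (2.62 ± 0.26, 6.08 CPM in IAA against 1.02 CPM in DMSO) were higher. For annexin, S100 and caveola genes, of 17 tested, 6 were higher, 8 lower and 3 did not pass the test (median 0.092): Ahnak, a large scaffold protein, was higher (1.46 ± 0.042, 362 CPM in IAA against 132 CPM in DMSO), S100a6 (-3.54 ± 0.31) and S100a13 (-1.99 ± 0.13), calcium-binding proteins, were lower, and S100a4 had 0 counts in IAA and 25 in DMSO, at least 5.78-fold lower with a floor of 3 counts over the group.

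The effect of IAA at day 6 was then set against its effect at day 4 with an interaction term. The effects differed for 2478 genes in the higher and 2661 in the lower direction, 29.5% of those tested. Gstm3, a glutathione transferase, had a log2 fold change of 3.72 at day 6 and 0.84 at day 4, a difference of 2.88 ± 0.63. Sncg, gamma-synuclein, on the first part of chromosome 14, had 2.14 at day 6 and -0.36 at day 4 (difference 2.49 ± 0.12). Pcsk1, a prohormone convertase (2.21 ± 0.30), Muc13 (2.08 ± 0.41) and Lgals2, a galectin (2.06 ± 0.29), also had larger values at day 6. In the other direction, Nepn had a log2 fold change of 0.68 at day 6 and 4.60 at day 4, and Meox1, a factor of somites, 0.59 at day 6 and 2.93 at day 4 (differences -3.92 ± 0.33 and -2.34 ± 0.12). Cxcl5, a chemokine (-2.33 ± 0.46), Zfp352 (-2.49 ± 0.36) and Mucl3 (-2.89 ± 0.38) were the other 3. Igf2 had a smaller effect at day 6 (4.02) than at day 4 (5.47), although its level was higher, since DMSO was at 66.5 CPM at day 6 and 9.13 CPM at day 4.

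Against day 0, the effects differed for 3663 genes in the higher and 3583 in the lower direction, 41.7% of those tested. Genes higher by at least 2-fold at day 6 numbered 1486, with a median of 1.49 at day 6, 1.02 at day 4, 0.44 at day 2 and 0.29 at day 0. The 1225 lower genes had -1.49, -0.78, -0.57 and -0.45 on those days; both sets were chosen on day 6, so these are descriptions. By the naming rule Aqp1 had the largest positive difference (5.85 ± 1.24), followed by Ambp, a plasma protein (5.71 ± 1.79), Ldb2 (5.44 ± 1.94), Tmem176b (5.43 ± 0.64) and Selenbp2 (5.43 ± 1.37). The rule asked for 5 CPM at day 6 only, so day 0 levels could be very low and the size of these differences is uncertain. Tmem176b was at 15.9 CPM in IAA and 3.95 CPM in DMSO at day 6, and at 0.0743 CPM in IAA and 0.996 CPM in DMSO at day 0. The largest negative differences were those of Mucl3 (-6.10 ± 0.25), Gkn1 (-5.80 ± 0.36), Fgf3 (-4.96 ± 0.54), Gkn2 (-4.90 ± 0.31) and Grem1 (-4.16 ± 0.50). Txnip was high in IAA at both ends, with log2 fold changes of 2.46 at day 6 and 2.57 at day 0, and its difference of -0.11 ± 0.062 did not pass the test.

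Counts over the lists at day 0 are read against 21.3% of all genes higher and 23.2% lower on that day. Of the core pluripotency list, 10 were lower and 2 higher at day 6, while 2 were lower and 9 higher at day 0. For Nanog the effect was -1.67 at day 6 and 0.56 at day 0, a difference of -2.23 ± 0.13 (edgeR quasi-likelihood adjusted p = 5.52e-19). Of the glycolysis and hypoxia genes, 19 at day 6 and 22 at day 0 of 24 tested were higher.

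**Figure D5:**
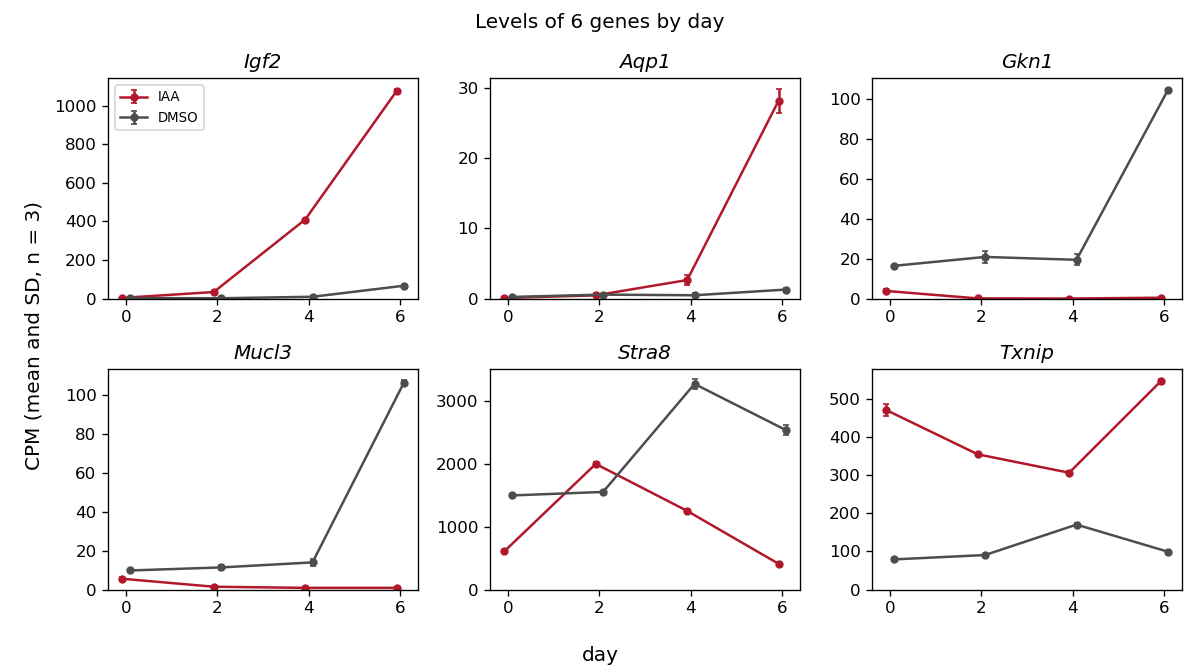
Mean CPM with SD over 3 libraries at days 0, 2, 4 and 6 in IAA (red) and DMSO (grey) for 6 genes. Igf2 reaches 1077 CPM in IAA and 66.5 CPM in DMSO at day 6, Gkn1 and Mucl3 are highest in DMSO at day 6, and Txnip is higher in IAA on each day.

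The leading genes were also set against BPK25 at day 6. IAA differed from BPK25 for 56.6% of the genes tested, and the root mean square log2 distance of IAA was 0.616 to BPK25 and 0.655 to DMSO of that day. Igf2 was at 1077 ± 11.4 CPM in IAA, 102 ± 1.24 CPM in BPK25 and 66.5 ± 2.33 CPM in DMSO, and IAA exceeded BPK25 by a log2 fold change of 3.39 ± 0.052. Gkn1 was at 0.407 ± 0.128 CPM in IAA, 102 ± 4.32 CPM in BPK25 and 105 ± 0.597 CPM in DMSO. Stra8 (-2.58 ± 0.043), Mucl3 (-6.62 ± 0.13), Meg3 (1.85 ± 0.041) and Aqp1 (3.99 ± 0.17) also differed between IAA and BPK25, in a comparison that shares its IAA libraries with the one against DMSO.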

How the data were processed

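The file deposited by the authors holds unnormalized counts for 55335 genes in 36 libraries, per the file headers. Per the submitters' processing notes, alignment tools named are HISAT2 2.1.0 and featureCounts 2.0.1, with mm10 as the build, beside FastQC 0.11.7 and DESeq2. Annotation release and strandedness: not given in the sources used here. Libraries were grouped by their titles.

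The filter filterByExpr (count of at least 10, total of at least 15) kept 17394 genes. TMM scaling and edgeR's quasi-likelihood test (R 4.3.3, edgeR 4.0.16, limma 3.58.1) were fitted once to 36 libraries, adjusted by Benjamini-Hochberg and called under 0.05. edgeR's common coefficient of variation between libraries of a group, beyond counting error, was 3.86%. Totals were 6621288 to 16497799 counts; reads without molecular identifiers are not independent, so intervals cover counting error only. Positions came from GENCODE M21, matched for 99.9% of genes. The members and lists were chosen with earlier results of these data known. The text names the 10 called genes furthest up and the 10 furthest down (mean of 5 CPM or more in either group, libraries not overlapping, no predicted symbol), the 10 smallest p-values, 5 and 5 per difference between days, up to 5 members per list in order of p, and Ctcf, Rad21, Smc3 and NuRD subunits; further members of a list or locus were named after their values were seen, and 1 of the 10 furthest down is not reported here. Replicate pairs within the groups differed by more than sampling noise (chi-square per degree of freedom 1.45 to 2.85). Alternatives were RLE scaling, DESeq2 1.42.0, other filters, fewer libraries, a term for replicate number and omission of single libraries. The fit was also run on simulated counts, with changes in few genes, the same dispersion for every gene and no chromosome shifts. That setting is unlike these data, so it says little about the counts of genes called here.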

Additional observations from a re-analysis of the deposited data

Results flagged for a closer look

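The effect of IAA differed between days by a test of the difference itself. Between day 6 and day 4 it was more positive at day 6 for 2478 genes and more negative for 2661, and between day 6 and day 0 for 3663 and 3583. Among genes whose difference passed the test and that met the naming rule, the greatest differences in log2 fold change, day 6 minus day 4, were Gstm3 2.88, Sncg 2.49, Pcsk1 2.21, Muc13 2.08, Lgals2 2.06, Nepn -3.92, Mucl3 -2.89, Zfp352 -2.49, Meox1 -2.34 and Cxcl5 -2.33. Those of day 6 minus day 0 were Aqp1 5.85, Ambp 5.71, Ldb2 5.44, Tmem176b 5.43, Selenbp2 5.43, Mucl3 -6.10, Gkn1 -5.80, Fgf3 -4.96, Gkn2 -4.90 and Grem1 -4.16. The naming rule set a least level at day 6 only.

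In libraries that the comparison did not use, the second part of chromosome 14 was low in the 3 libraries labelled BPK25 at day 4, which had medians between -0.82 and -0.80 relative to DMSO of that day, near the IAA libraries of day 6 (-0.79 to -0.76).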

How the results depend on the processing

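No count of genes called, at day 6 or for the differences between days, moved by more than 1.5 times under any of the 110 alternative values, and of the alternative values of the leading genes of day 6 and mt-Nd3, 387 kept their direction and their call and 1 (mt-Nd3 without the first DMSO library) lost the call. At day 6 the genes higher ranged over 4637 to 5510 and the genes lower over 4332 to 5353 under the other scalings, tests, filters and subsets, among them DESeq2 with 5070 and 4522. Leaving out 1 library gave 4816 to 5215 higher and 4715 to 4956 lower. Over the lists, 14 of the counts of members moved by more than 1.5 times with 1 library left out, all of them counts of 8 or fewer. RLE scaling shifted log2 fold changes by 0.019. With the replicate block, 5300 genes were higher and 5209 lower at day 6; the pairing is not given by the labels, and same-numbered IAA and DMSO libraries of day 6 had correlations of their deviations of 0.032, 0.11 and 0.013. The differences between days under the block were 2430 higher and 2592 lower for day 4, and 3615 and 3536 for day 0. Without the 3 BPK25 day 4 libraries, a choice made after seeing the data, 5311 were higher and 5192 lower at day 6. Depth limits genes with few counts, such as Cyp1a1 and Fgf3.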

Other observations

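Outside chromosomes 8, 12 and 14, the 10 Mb window with the lowest median at day 6 lay on chromosome 10, where 26 genes with at least 5 CPM had a median log2 fold change of -0.47. It was picked after the values were seen.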
